A study of Oryctolagus cuniculus with 9 samples.

Results

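The genes CD4, CD5, CD28, CD79B and MS4A1 encode proteins of the lymphocyte surface. They were read from rabbit knee cartilage by RNA sequencing, chosen by gene symbol, and are 5 of the 14870 genes listed. Each symbol had 1 row, with the Ensembl identifiers ENSOCUG00000012911 for CD4, ENSOCUG00000022346 for CD5, ENSOCUG00000016134 for CD28, ENSOCUG00000004345 for CD79B and ENSOCUG00000007941 for MS4A1. The animals were New Zealand White rabbits, 4 to 5 months old when they entered the study, with a surgical osteochondral defect in the trochlear groove of both knees, the right one filled with a collagen and chondroitin sulfate scaffold (CLCS) and the left one left empty. Tissue was taken 12 weeks after surgery, and 3 libraries each came from healthy cartilage, untreated defects and CLCS treated defects. The study's scheme takes healthy tissue from the condyle, so that injury and site cannot be told apart in any difference from healthy cartilage, and all groups come from rabbits that had surgery. The sources do not say whether libraries of one number share a rabbit, so p-values measure the spread between these libraries.

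T cells and B cells recognise antigen through receptors whose binding chains are specific to each cell and whose signalling chains are shared. On helper T cells CD4 binds MHC class II beside the T cell receptor and brings the kinase LCK to it, and CD4 is also found on monocytes and macrophages of several species. CD28 binds CD80 and CD86 and supplies the second signal of T cell activation, while CD5 is a scavenger receptor family protein of T cells and some B cells that dampens antigen receptor signalling. CD79B is, with CD79A, the signalling chain of the B cell receptor. MS4A1, known as CD20, is a membrane protein of B cells that is lost in plasma cells. Healthy articular cartilage has no blood or lymph vessels and holds few lymphocytes, while the marrow below a full-thickness defect holds many.

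The libraries held between 724986 and 1226408 reads recovered from the deposited values. The paper reports far more aligned read pairs for each library than were recovered, and the reason was not tested. The reference genes ACTB and GAPDH also had few recovered reads, at 10 to 128 and 15 to 91. Low counts below are limited by this depth, so they do not show that a gene was not expressed. The 5 genes together took 109 to 579 of the recovered reads per library. A single gene without a symbol, ENSOCUG00000023467, took 1.49% to 49.4% of a library. Values below are normalized reads, that is, reads divided by the size factor of the library, unless reads are named. They are not divided by gene length, so levels are compared between libraries and not between genes. Intervals on reads are exact Poisson 95% intervals and cover counting error only. In bulk tissue, fewer cells of a type and less RNA per cell cannot be told apart.

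Many defining genes of lymphocytes were at or near 0 reads in these libraries, while some listed genes had more. The 5 genes are therefore described by their symbols and not as a measure of a cell type. Of 34 T cell symbols, 16 had a row. CD2 had 0 to 2 reads, IL7R 0 to 1, LAT 0 to 2, CD6 0 to 6, LCK 0 to 4 and TRAC, the constant chain of the T cell receptor, 0 to 2. No row carried the symbols CD3D, CD3E, CD3G, CD8A or ZAP70, which were not analysed here. Of 29 B cell and plasma cell symbols, 18 had a row, with PAX5 and the antibody chain IGHM at 0 to 1 reads, and no row was named CD79A, the partner of CD79B. The transcription factor IKZF1 had 0 to 1 reads. The pan-leukocyte phosphatase PTPRC, known as CD45, had 2 to 3 reads in healthy, 6 to 15 in untreated and 4 to 9 in CLCS libraries, and the leukocyte tetraspanin CD53 2 to 3, 8 to 10 and 4 to 5. Both were too low to be tested, and their reads in the defects lay above those of healthy cartilage. Several other untested genes of the leukocyte list also had higher means in both kinds of defect, and others did not. LCP1 had 0 to 2 reads in healthy, 4 to 7 in untreated and 0 to 3 in CLCS libraries, and ARHGAP30 0 to 1, 2 to 8 and 1 to 3. The means of WAS, LAPTM5, ARHGDIB, RAC2, ITGB2 and ITGAL were likewise higher in both, at few reads. Lower means in both were found for CORO1A and SASH3. CORO1A had 3 to 9 reads in healthy, 5 to 6 in untreated and 1 to 2 in CLCS libraries, and SASH3 3 to 11, 0 to 5 and 1 to 5. Other listed genes had more reads. The tetraspanin CD37 had 531 to 1339, the kinase FYN 147 to 317 and the lectin CD22 46 to 87, and FYN is also expressed by many other cells. IRF4 of the B cell list had 26 to 51 reads. Of the T cell list, CCR7 had 1 to 38 reads, CD40LG 1 to 20, CD27 0 to 14 and FOXP3 4 to 12. CD28 had 411 reads in healthy 1, a library in which CD2 and IL7R had 0.

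**Figure D1:**
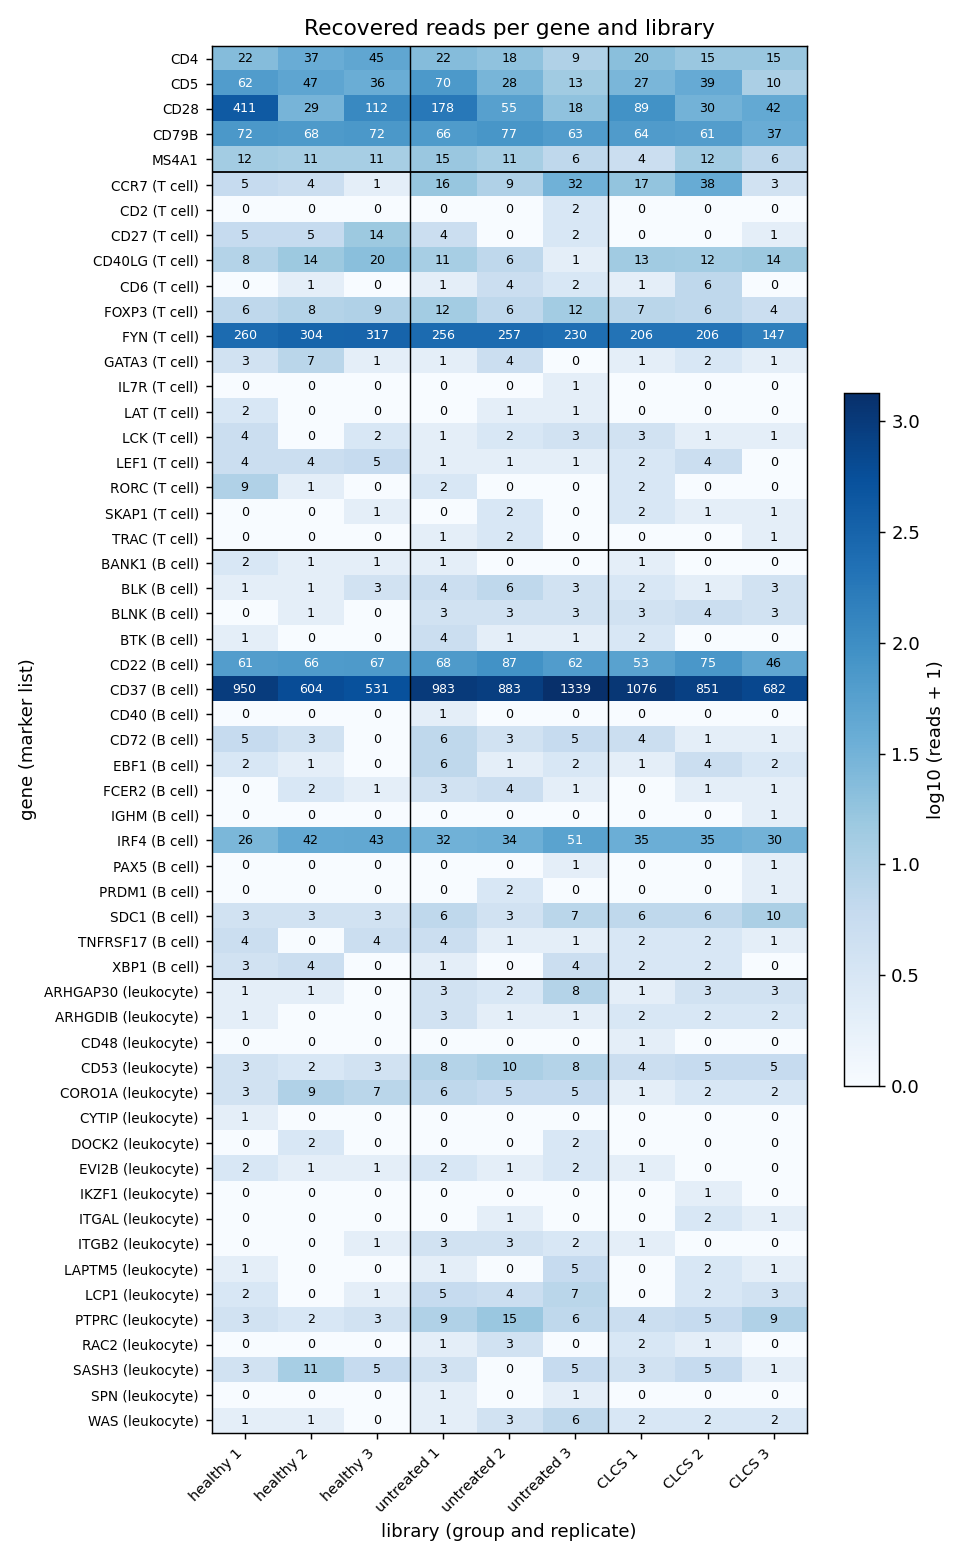
Reads recovered per gene (rows) and library (columns, group and replicate) for the 5 genes and for genes of the T cell, B cell and leukocyte lists that had a row, coloured by log10 of reads plus 1. CD28 spans 18 to 411 reads, while CD2, IL7R, IGHM and PAX5 stay at 0 to 2.

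CD4 was lower in both kinds of defect than in healthy cartilage, by estimates that did not pass the adjusted threshold. Its normalized reads were 20.7, 37.6 and 40.7 in healthy libraries 1 to 3, 17.3, 18.0 and 8.16 in untreated libraries and 20.7, 14.8 and 18.7 in CLCS libraries. The means were 33.0 ± 10.7 in healthy cartilage, 14.5 ± 5.50 for untreated and 18.0 ± 3.00 for CLCS defects (SD, n = 3 each). No untreated or CLCS library reached the lowest healthy one, but CLCS 1 lay only 0.0630 normalized reads below healthy 1, which is less than 1 read. Groups that did not overlap in this direction made up 10.7% of all genes tested in untreated against healthy samples and 12% in CLCS against healthy samples. In limma on log2 of normalized reads plus 1, the untreated difference was -1.15 (SE 0.42, adjusted p = 0.225) and the CLCS difference -0.79 (SE 0.34, adjusted p = 0.285). With 22, 37 and 45 reads in healthy, 22, 18 and 9 in untreated and 20, 15 and 15 in CLCS libraries, counting error is a large part of each value. The variance among libraries was 3.72 times the counting variance for healthy cartilage, 2.30 times for untreated defects and 0.499 times for CLCS defects. The defects differed from each other by 0.36 on the log2 scale, higher in CLCS samples (95% interval -0.48 to 1.19, adjusted p = 0.996), and by 0.016 without untreated replicate 3.

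The monocyte and macrophage genes, some of which are found in cells that also carry CD4, were mixed in direction. The sum of the 16 genes with a row was 325 to 578 normalized reads in healthy, 509 to 1319 in untreated and 812 to 1164 in CLCS libraries. One gene, the scavenger receptor STAB1, made up 76.8% to 91.9% of this sum, and the other 15 genes summed to 62.9 to 75.4 in healthy, 74.0 to 287 in untreated and 94.6 to 116 in CLCS libraries. Both sums overlapped between untreated and healthy libraries and did not overlap between CLCS and healthy ones. STAB1 had estimates of 0.75 and 1.15 in untreated and CLCS samples against healthy ones, whereas AIF1, a calcium-binding protein of macrophages, had -0.44 and -0.58 and the lysosomal protein CD68 had 0.58 and -0.14, none of them called. TYROBP, an adaptor of myeloid receptors, was the one list member called, higher by 1.82 on the log2 scale in CLCS against healthy samples (adjusted p = 0.0188, limma). It had 7 to 10 reads in healthy, 27 to 29 in CLCS and 9 to 166 in untreated libraries. TYROBP did not pass the filter in untreated against healthy samples and was not tested there, while the paper lists it as raised in untreated defects. CSF1R, the receptor of macrophage growth factor, had 2 to 7 reads in healthy, 13 to 18 in untreated and 9 to 13 in CLCS libraries. Its estimate was 1.53 in untreated against healthy samples (adjusted p = 0.135, limma), and it was not tested in CLCS against healthy samples. CD68 had 2 to 23 reads and CD14 1 to 8. The part of these cells in the CD4 values was not tested.

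CD28 was the most variable of the 5 genes over the libraries, with a spread within groups as wide as its differences between them. Healthy libraries 1 to 3 had 387, 29.4 and 101 normalized reads, untreated libraries 140, 55.0 and 16.3, and CLCS libraries 92.0, 29.5 and 52.3. The group means fell in the order healthy, untreated and CLCS, at 173 ± 189, 70.5 ± 63.4 and 57.9 ± 31.6 (SD, n = 3 each), and all 3 groups overlapped. Healthy 1 alone had 411 reads (interval 372 to 453), beside 29 in healthy 2 and 112 in healthy 3. The variance among healthy libraries was 213 times the counting variance, against a median of 3.21 over 3810 genes that passed the filter. Replicate 1 was the highest in each of the 3 groups, 0.80 to 1.87 above its group mean on the log2 scale, whereas the lowest was replicate 2 in healthy and CLCS samples and replicate 3 in untreated samples. The estimate was -1.05 in untreated (SE 1.05, adjusted p = 0.724) and -0.999 in CLCS samples (SE 0.88, adjusted p = 0.615) against healthy ones. Without healthy replicate 1 these became -0.11 and -0.066, and without healthy replicate 2 they became -1.95 and -1.90. The untreated estimate was -0.26 without untreated replicate 3 and -1.77 without untreated replicate 1, and the CLCS estimate -0.60 without CLCS replicate 2.

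CD5, the inhibitory receptor, had its lowest value in the same replicate number in each group. It had 58.4, 47.7 and 32.5 normalized reads in healthy libraries, 55.1, 28.0 and 11.8 in untreated libraries and 27.9, 38.4 and 12.5 in CLCS libraries. Its means were 46.2 ± 13.0 in healthy cartilage, 31.6 ± 21.9 for untreated and 26.2 ± 13.0 for CLCS defects (SD, n = 3 each). The groups overlapped, and replicate 3 was the lowest in each of them, by 0.45 to 1.11 below the group mean on the log2 scale. CD5 differed from healthy cartilage by -0.74 in untreated (SE 0.55, adjusted p = 0.590) and -0.89 in CLCS samples (SE 0.45, adjusted p = 0.365). Without untreated replicate 3 the untreated estimate was -0.19, without untreated replicate 1 it was -1.26, and without CLCS replicate 3 the CLCS estimate was -0.45. The variance was 17.4 times the counting variance in untreated samples and 5.54 times in CLCS samples.

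CD79B was the steadiest gene, with a coefficient of variation over 9 libraries of 15.2%, beside 114% for CD28. It had 67.8, 69.0 and 65.1 normalized reads in healthy libraries, 52.0, 77.0 and 57.1 in untreated libraries and 66.1, 60.0 and 46.1 in CLCS libraries. The means were 67.3 ± 2.03, 62.0 ± 13.2 and 57.4 ± 10.3 in that order (SD, n = 3 each). The healthy libraries lay close together and within the range of the untreated ones, and CLCS 3 was the lowest of all. Its differences from healthy cartilage were -0.14 in untreated and -0.24 in CLCS samples, and the 95% intervals of the fold were 0.574 to 1.44 and 0.548 to 1.31. A change beyond these bounds is outside the intervals, while a smaller one in either direction remains within them. On library-total (CPM) scaling, the untreated estimate turned to 0.05 and the CLCS estimate was -0.58. The untreated estimate was -0.020 without untreated replicate 1 and -0.30 without untreated replicate 2, and the CLCS estimate was -0.093 without CLCS replicate 3.

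MS4A1 had the fewest reads of the 5 genes, with 12, 11 and 11 in healthy, 15, 11 and 6 in untreated and 4, 12 and 6 in CLCS libraries. The corresponding normalized reads were 11.3, 11.2 and 9.94 in healthy, 11.8, 11.0 and 5.44 in untreated, and 4.13, 11.8 and 7.47 in CLCS libraries. The means were 10.8 ± 0.752, 9.42 ± 3.47 and 7.80 ± 3.85 in that order (SD, n = 3 each). The groups overlapped, and the exact interval of the lowest count, 4 reads in CLCS 1, was 1.09 to 10.2 reads. The estimates were -0.24 in untreated (adjusted p = 0.816) and -0.52 in CLCS samples (adjusted p = 0.528) against healthy ones. Without untreated replicate 3 the untreated estimate turned to 0.07, and the CLCS estimate was -0.18 without CLCS replicate 1 and -0.84 without CLCS replicate 2. The variance among libraries, 0.0567 to 1.86 times the counting variance, was near what counting alone gives.

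**Figure D2:**
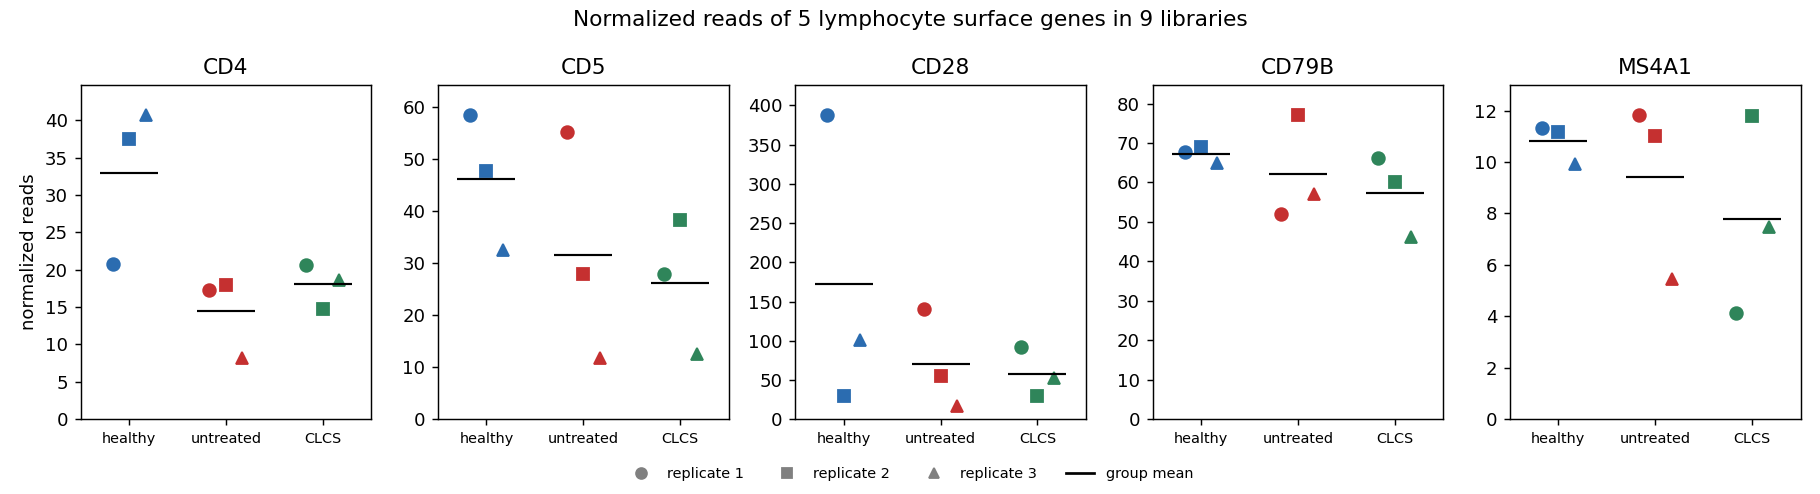
Normalized reads (vertical axis, from 0, own scale per gene) of the 5 genes in the 3 healthy, 3 untreated and 3 CLCS libraries, with marker shape for the replicate number and a line at the group mean. CD28 is highest in replicate 1 of each group, CD5 lowest in replicate 3 of each group, and CD4 is the gene whose defect libraries all lie below the healthy ones.

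Across the 3 comparisons, 0 of the 5 genes were called at an adjusted p under 0.05 by limma, and likewise 0 by edgeR's quasi-likelihood test and by DESeq2 on the recovered reads. Over all genes tested, limma called 2.55% for untreated defects and 3.16% for CLCS defects against healthy cartilage, and 0% between the defects, edgeR 2.49%, 3.73% and 0%, and DESeq2, which tested a wider set of genes, 5.2%, 5.93% and 0%. At an unadjusted p under 0.05, limma held 1 of the 5 genes, CD4, in untreated against healthy samples, where 16.6% of all genes passed. It held 0 for CLCS against healthy samples, where 17.5% passed, and 0 between the defects, where 2.9% passed. By that unadjusted threshold edgeR and DESeq2 each held CD4 for untreated samples, edgeR held CD4 and DESeq2 held CD28 for CLCS against healthy samples, and both held 0 between the defects. The share of genes passing it was 17.2%, 18% and 2.69% by edgeR, over 3496, 3294 and 3275 genes. By DESeq2 it was 5.85%, 5.39% and 0.611%, over 14288, 13851 and 14086 genes. The DESeq2 set was not filtered by reads and includes genes with few of them, so the shares of the 2 methods are not alike. The replicate number was also used as a block, though pairing by it is not established. In CLCS against healthy samples, limma then held 1 of the 5 at the unadjusted threshold, CD5, where 20.3% of all genes passed. Its 95% interval was -1.68 to -0.09, with an adjusted p of 0.203 in limma. With CLCS against untreated samples, 4.52% of all genes were lower with no overlap, and none of the 5 was. The smallest p an exact permutation test of 3 against 3 libraries can give is 0.1, so none was run.

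The arithmetic mean fell in the order healthy, untreated and CLCS for 4 of the genes and in the order healthy, CLCS and untreated for CD4, while on the log2 scale CD28 was 0.05 higher in CLCS than in untreated samples, and no neighbours in these orders differed past the adjusted threshold. All 5 estimates were below 0 in both comparisons with healthy cartilage, where 51.5% and 55.1% of all genes tested were below 0. Their medians were -0.74 and -0.79 on the log2 scale, beside medians of -0.02 and -0.08 over all genes tested. The 5 genes were chosen with earlier results of these data known, so their shared direction is a description only. Both comparisons use the same healthy libraries, and the exceptions in sign among all alternatives run are CD79B on library-total (CPM) scaling and MS4A1 without untreated replicate 3. CLCS and untreated samples differed by -0.15 for CD5 (95% interval -1.58 to 1.28), 0.05 for CD28 (-1.74 to 1.84), -0.11 for CD79B (-0.77 to 0.56) and -0.28 for MS4A1 (-1.29 to 0.73). These intervals include differences in either direction. On library-total (CPM) scaling, the median of all genes shifted to 0.17, -0.41 and -0.52 in the comparisons of untreated with healthy, of CLCS with healthy and of CLCS with untreated tissue.

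**Figure D3:**
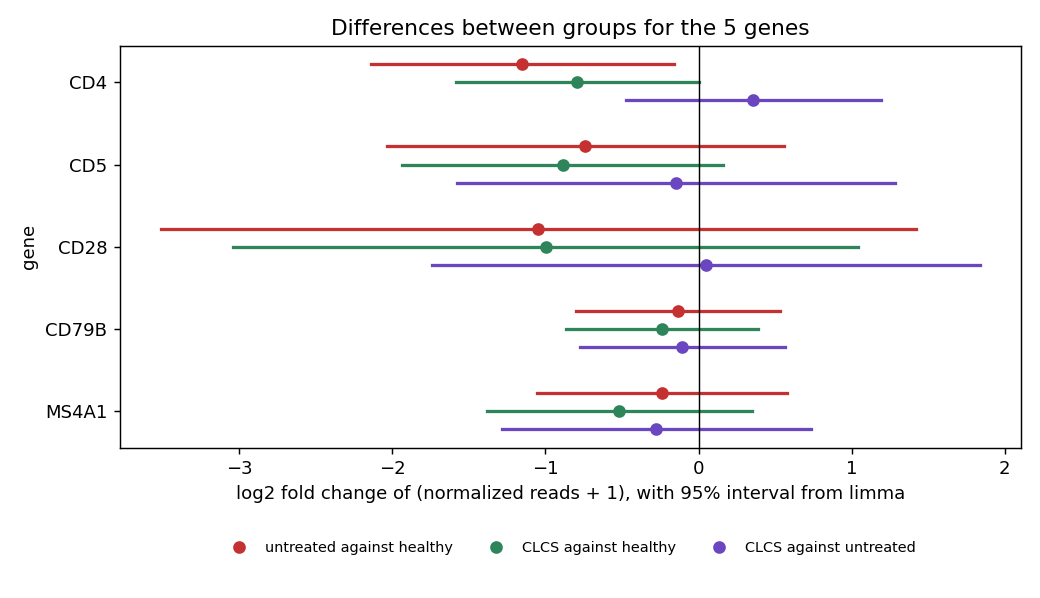
Log2 fold change of normalized reads plus 1 (horizontal axis) with its 95% limma interval for each of the 5 genes and 3 comparisons. Only the interval of CD4 in untreated against healthy samples lies wholly below 0 in these fits without a replicate block, and its adjusted p is 0.225.

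**Figure D4:**
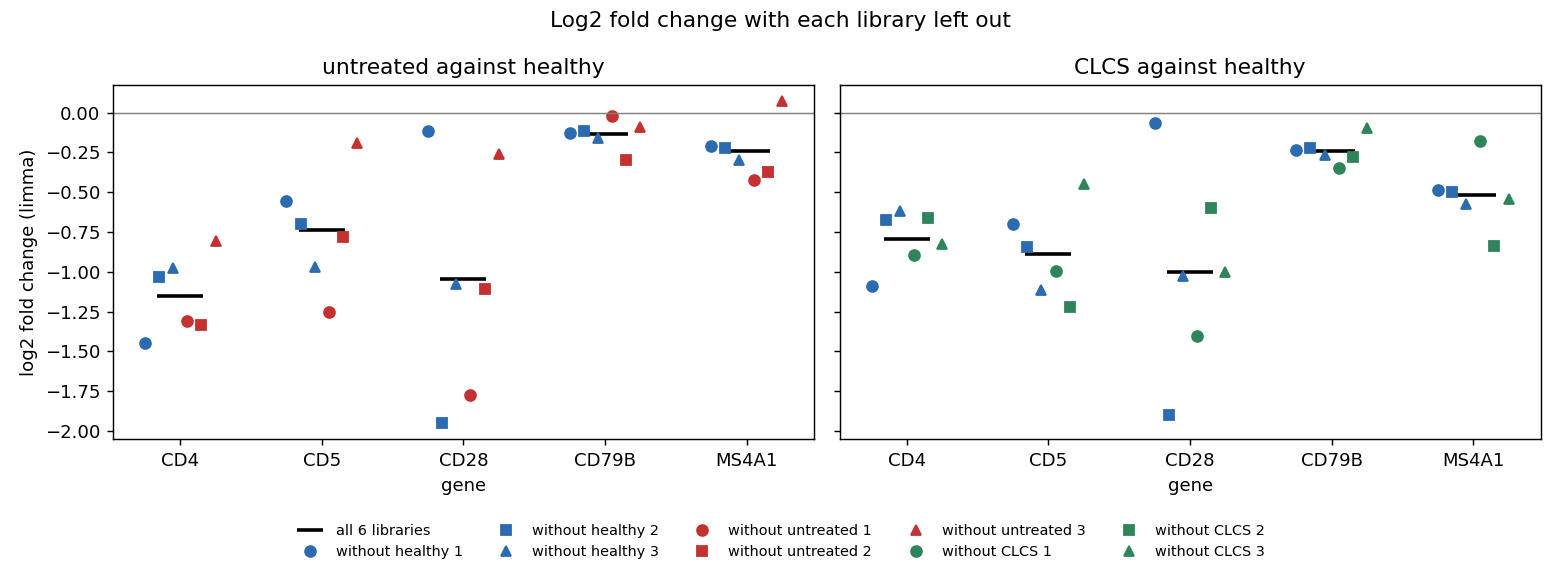
Log2 fold change against healthy cartilage with all 6 libraries (bars) and with each library left out (coloured points). CD28 moves most, from -1.95 to -0.11 in untreated and from -1.90 to -0.066 in CLCS samples, depending on which healthy library is absent.

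The genes with which these receptors act were described from lists of the pathway. Among the ligands of CD28 and CD4 and antigen presentation genes, 11 of 16 symbols had a row, 5 were tested in each comparison and 0 were called. Their median estimate was -0.22 in untreated and 0.19 in CLCS samples against healthy ones. CD80, a ligand of CD28, had 7 to 28 reads and differed from healthy by -0.13 in untreated and 0.19 in CLCS samples. CIITA, the regulator of MHC class II, had 366 to 653 reads, IL16, a cytokine that binds CD4, 195 to 389, and HLA-DPA1 8 to 23. Of 28 symbols for signalling behind antigen and costimulatory receptors, 24 had a row, of which 10 never exceeded 3 reads, and 0 of the tested ones were called. PLCG1, a phospholipase of many receptors, had estimates of -1.54 (adjusted p = 0.368) and -1.78 (adjusted p = 0.0811) in untreated and CLCS against healthy samples, and PTPN22, a phosphatase of T cell signalling, -0.35 (adjusted p = 0.689) and -1.20 (adjusted p = 0.0693). In the same order, RASGRP1 had -1.73 (adjusted p = 0.138) and -1.73 (adjusted p = 0.108), ITPR3 -0.46 and -0.29, and PRKCQ -0.07 and -0.45. The tested signalling genes had medians of -0.46 and -1.20, beside -0.02 and -0.08 over all genes, and 1 of 5 and 3 of 5 had an unadjusted p under 0.05, beside 16.6% and 17.5% of all genes. The sum of the signalling list was 280 to 294 normalized reads in healthy, 98.8 to 192 in untreated and 107 to 142 in CLCS libraries. PLCG1 made up 13.8% to 68.5% of it, and without PLCG1 the sums overlapped between healthy and untreated libraries, at 89.4 to 197, 85.2 to 101 and 80.9 to 88.9, the highest of them in healthy 2, where the transcription factor NFATC2 had 90 reads, against 2 to 11 in the other libraries.

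The T cell list had 2 genes tested against healthy cartilage in each comparison and 3 between the defects, and the B cell and plasma cell list had 3, all with 0 called. FYN differed from healthy by -0.33 and -0.48 in untreated and CLCS samples, and CD37 by 0.55 and 0.53, with no call. In the same order CD40LG, the other T cell gene tested there, had -1.42 and 0.15. Between the defects, CD40LG was 1.57 higher in CLCS than in untreated samples (adjusted p = 0.996, limma), and CCR7 differed by -0.09. The NK and cytotoxic list held 4 tested genes of 7 with a row and 0 called, with 436 to 749 reads of CST7, a protease inhibitor, and 1 to 11 of PRF1, the pore protein of killer cells. The all-leukocyte list had 1 tested gene and 0 calls. Other lists moved more between the groups. Of 11 tested fibroblast and bone genes, COL1A1, COL1A2 and POSTN rose in untreated samples against healthy ones, and COL1A1, COL1A2, POSTN and IBSP, a bone matrix protein, in CLCS samples, with COL1A1 up by 3.79 (adjusted p = 0.0398) and 3.95 (adjusted p = 0.0277). None of the 8 tested chondrocyte genes was called. The 15 chondrocyte genes with a row, tested or not, summed to 8254 to 11191 normalized reads in healthy, 768 to 10049 in untreated and 10067 to 28133 in CLCS libraries. COL2A1, the type II collagen of cartilage, made up 59.6% to 90.8% of this sum. The median estimate of the 8 tested genes was -1.29 in untreated and -0.11 in CLCS samples against healthy ones. Of these 8 genes, 4 and 1 had an unadjusted p under 0.05 in limma, beside 16.6% and 17.5% of all genes. The erythroid and endothelial lists each had 1 tested gene and 0 calls, and of the neutrophil and marrow genes none passed the filter. The part of a changed mix of tissue in the 5 genes was not tested.

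Neighbouring and overlapping genes were looked up in the RefSeq annotation of another assembly, mOryCun1.1, within 5000 bases. VPS37C beside CD5 and SCN4A beside CD79B had 0 to 1 reads in every library, so that reads of these neighbours were near 0. GPR162 beside CD4 and the non-coding RNAs that overlap CD5, CD28 and MS4A1 were not analysed here. The sources do not state whether reads were counted by strand, so reads of a gene and of an overlapping RNA on the other strand cannot be told apart.

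The 5 genes followed each other only in part. Over the 9 libraries, Pearson's r of log2 normalized reads ranged from 0.13 between CD28 and CD79B to 0.66 between CD5 and MS4A1, and these points share depth and groups. The genes most like CD28 were RPL24 (r = 0.95), UACA (0.95) and ZNHIT6 (0.93), among 3117 genes with a symbol that passed the filter. For CD4 they were ZMPSTE24 (0.96), NSD1 (0.96) and DOK1 (0.95), for CD5 BBOF1 (0.94), DIXDC1 (0.93) and VIT (0.91), for CD79B CARMIL1 (0.97), CLRN1 (0.96) and SHISA2 (0.96), and for MS4A1 CCR9 (0.93), OXCT1 (0.93) and CDK17 (0.87). Such values come from choosing the highest of many genes over 9 libraries and are a description. As references of depth, ACTB had 10 to 128 reads and GAPDH 15 to 91.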

How the data were processed

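RNA sequencing of 9 rabbit cartilage libraries was used. Per the authors' methods, TruSeq libraries of polyA RNA were mapped by TopHat and Bowtie (OryCun2.0, multiple alignments discarded), counted per gene with eXpress and normalized with DESeq2. Versions, annotation release and strand setting are not given in the sources used here. The deposited values are a signal, reads divided by a size factor; whole reads were recovered for 100% of values (tolerance 0.001).

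The healthy columns, identical in both tables, were used once. Groups came from the labels. The main test was limma (3.58.1, R 4.3.3), applied to log2 of 1 plus each deposited value, with Benjamini-Hochberg adjustment over all genes kept by filterByExpr on the recovered reads, for the 6 libraries of each comparison. edgeR 4.0.16 and DESeq2 1.42.0 on the recovered reads, pseudocounts of 0.5 and 2, other filters and scalings, a fit of 9 libraries, a replicate block and leaving out each library were alternatives. The pipeline was tested on simulated data. A few list genes are not reported here singly or plotted, but count in the list totals.

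Named genes were the 5 members, up to 4 genes per list by mean value, genes within 5000 bases, the 3 most like genes and the references GAPDH and ACTB. Other genes named, such as defining markers near 0 and called genes, were picked with their values known. Members and lists were chosen with earlier results of these data known. For libraries of equal number, deviations from the group means correlated at 0.28, 0.14 and 0.19 between CLCS and healthy samples. The correlations were 0.25, 0.33 and 0.30 between CLCS and untreated samples, and 0.29, 0.13 and -0.04 between untreated and healthy samples. Libraries of unequal number were not compared in this way, so these values do not establish pairing, and the replicate block is an alternative only.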

Additional observations from a re-analysis of the deposited data

How the results depend on the processing

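None of the 5 genes was called under any of the 16 alternatives in any of the 3 comparisons, while the number of all genes called ranged from 1 to 267 in untreated and from 0 to 248 in CLCS against healthy samples. Of 240 re-estimates of the 5 genes, 14 changed sign, 2 of them against healthy cartilage, and the cause was not tested. For untreated against healthy samples, CD79B became 0.05149 on CPM scaling, and MS4A1 lay between -0.4229 and 0.07351 over left-out libraries, highest without untreated replicate 3. For CLCS against untreated samples, CD28 became -0.305 by edgeR, -0.2804 by DESeq2, -0.4741 on CPM scaling and -0.09765 on CPM scaling without ENSOCUG00000023467 (chosen after seeing the data), and CD4 became -0.1412 on CPM scaling. Over left-out libraries in that comparison, CD28 lay between -0.7393 and 0.7744, CD4 between 0.01579 and 0.5422, CD5 between -0.7007 and 0.3665, CD79B between -0.221 and 0.05796 and MS4A1 between -0.5963 and 0.06332. With the replicate block 0 of the 5 genes were called in each comparison, with 94, 125 and 0 of all genes, and in CLCS against healthy samples the SE of CD28 went from 0.88 to 0.44 and the adjusted p of CD5 to 0.203. Neither the sources nor the data establish that libraries of one number share a rabbit, so the block was an alternative and not the main test.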
